A study of Mus musculus with 16 samples.

Results

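Klk6, Apod, Hopx, Anln, Aplp1, Ptgds, Opalin, Tspan2, Il33 and Car2 are 10 of the 55487 genes listed for single cells of the mouse spinal cord, and they were chosen from the leading genes of Cluster 4 and Cluster 8, the 2 clusters that the authors named oligodendrocytes. What chose them was their level in those clusters against the other cells, so each difference between the clusters given here is a description with no test. The tests below concern injury, time and genotype, which are other contrasts than the one the genes came from, although earlier results of these data were known when the genes were chosen.

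The cells came from cord tissue around a lesion of the dorsal columns, the tracts at the back of the cord, and from uninjured cord. Each of 16 mice gave 1 library of 10x Genomics 3′ counts, in which a unique molecular identifier (UMI) stands for 1 captured RNA molecule. The study asks how Ryk, a receptor for Wnt ligands, acts in astrocytes after spinal cord injury. WT mice carry the genotype Ryk+/+,GFAPcreERT2 and cKO mice carry Rykfl/fl,GFAPcreERT2, and all were 8-10 weeks old. Each genotype was sampled uninjured (labelled Sham) and at 1, 7 and 14 days (d) after spinal cord injury, with 2 libraries per genotype and time. The inducible Cre is thus present in the controls too, and the study's methods give tamoxifen daily for 7 days, starting 5 days before surgery. Cre is driven by GFAP, which marks astrocytes, so oligodendrocytes were not the cells in which Ryk was to be deleted. Actinomycin D, which blocks transcription, was present while the tissue was dissociated in every group.

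The 16 libraries hold 18203 cells in 17 clusters, of which 1768 are in Cluster 4 and 892 in Cluster 8. WT 1 d replicate 2 has 1 cell with 266 UMIs and was left out, which leaves 15 mice and a lone WT mouse at 1 d. The lowest, median and highest total of the other mice was 536263, 3032957 and 9008729 UMIs, from 208 to 1845 cells per mouse. Cluster 4 held 29 to 228 cells and 63439 to 790355 UMIs per mouse. Cluster 8 held 7 to 130 cells per mouse, and 44709 to 473653 UMIs in the 14 mice that had at least 10 of its cells. cKO uninjured replicate 1, with 7 cells, gives no Cluster 8 value.

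Some libraries stand apart or carry conflicting names. In 6 of the 16 mice, all of them replicate 2, the names of the cells give another condition than the sample title, and titles were used here. By the cell names, WT uninjured replicate 2 would be cKO uninjured, cKO uninjured replicate 2 WT 7 d, WT 1 d replicate 2 WT 14 d, WT 7 d replicate 2 WT 1 d, WT 14 d replicate 2 cKO 14 d and cKO 14 d replicate 2 cKO 7 d, so what is said below of these mice holds for the titles. The batch column of the cell table repeats the number of the replicate for each of the 16 mice, so batch and replicate cannot be told apart. Of 17937 distinct barcodes, 166 occur in several libraries, 13 of them within Clusters 4 and 8. The median depth was 414 to 548 UMIs per cell in the 4 injured mice whose animal numbers are below 10000 (WT 1 d replicate 1, cKO 1 d replicate 1, WT 7 d replicate 1 and cKO 7 d replicate 1). It was 1514 to 3637 in the 7 injured mice with numbers of 10000 and above. Uninjured mice had the reverse order, with 1998.5 and 2306.5 in the 2 with numbers below 10000 and 1040.5 and 1057 in the 2 others. These series of animal numbers are split across time, since every 14 d mouse has a number of 10000 or above, so their values are given beside the results that they touch.

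The deleted gene was read first. In Clusters 4 and 8 together, Ryk was at 64.1 and 11.3 CPM (the UMIs of a gene divided by all UMIs of those cells, on the usual scale of this unit) in the uninjured WT mice, 74.0 in the WT mouse at 1 d, 48.5 and 63.8 in those at 7 d, and 37.5 and 42.4 in those at 14 d. In cKO mice it was at 46.5 and 8.01 CPM in the uninjured pair, 64.0 and 54.6 in the 1 d pair, 64.1 and 48.5 in the 7 d pair, and 53.8 and 64.8 in the 14 d pair. The genotypes overlap, with 137 UMIs in 7 WT mice and 240 in 8 cKO mice. Ryk was also read in Clusters 2, 5 and 7, which the authors named astrocytes, the cell type that GFAP-driven Cre is meant to reach. Cre activity in each cluster was not measured. Over these clusters, Ryk was at 109 ± 30.8 CPM in WT (SD, n = 7) and 87.0 ± 34.5 in cKO mice (SD, n = 8). The genotypes overlap here as well. A 3′ tag that lies outside the deleted part of the gene checks nothing about the deletion.

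Oligodendrocytes wrap axons of the central nervous system in myelin, a stack of membrane built from a few abundant proteins and lipids, and they arise from precursor cells (OPCs) that divide throughout life. Mature oligodendrocytes are not uniform: in the mouse, populations rich in Ptgds and populations rich in Klk6 have been described, and their proportions differ between regions of the brain and cord. The genes studied here span secreted proteins (Klk6, Apod), a cytokine held in the nucleus (Il33), a lipid enzyme (Ptgds), membrane proteins (Opalin, Tspan2, Aplp1), a scaffold of the cell skeleton (Anln), a regulator of transcription (Hopx) and an enzyme of acid-base balance (Car2).

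Both clusters carry the markers of their label. All 7 oligodendrocyte markers had UMIs in each cluster. Among the 17 clusters, Mbp ranked 5 in Cluster 4 and 2 in Cluster 8, and Mobp 3 and 1. Clusters with other names thus lay above Cluster 4 in these markers. Summed over the 7 markers, the level was 36278 CPM in Cluster 4 and 54541 in Cluster 8, against 6860 in Cluster 11, which the authors named OPCs. The 6 OPC markers summed to 210.3 CPM in Cluster 4 and 123 in Cluster 8, against 10506 in Cluster 11. Markers of other cells were present at low level and none of the lists was at 0. Astrocyte markers (6 of 6 with UMIs) summed to 984 CPM in Cluster 4, led by Slc1a2, and 1366 in Cluster 8, led by Aldoc. Neuron markers (7 of 7) summed to 453 and 449 CPM, microglia markers (5 of 5) to 209 and 203, endothelial markers (4 of 4) to 224 and 49.1, and red blood cell markers (3 of 3) to 167 and 86.5. Schwann cell markers (4 of 4) summed to 197 and 457 CPM, most of it Pmp22 (159 and 445). RNA from other cells and expression in the clusters themselves were not told apart.

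Ranked by fold over all other cells, among genes with a UMI in at least 10% of a cluster's cells, Ptgds came first in Cluster 4 (24.2-fold), followed by Tspan2 and Opalin at ranks 2 and 3 of 3324 genes. Car2, Aplp1 and Il33 were at ranks 11, 12 and 18 there. In Cluster 8, Klk6 came first (28.1-fold) and Apod second of 3409 genes, with Hopx, Aplp1 and Anln at ranks 6, 7 and 8 and Car2 at rank 65. Aplp1 and Car2 therefore led in both clusters to some degree, and the other genes in 1 of them. Between the leading genes of Cluster 4 ranked Tmeff2, Pex5l, St18, Pde4b, Mag, Edil3 and Slc24a2, and between those of Cluster 8 Trf, Ermn, Serpina3n and Tubb4a, which are named only to show the neighbours in rank.

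Levels in the clusters were compared within each of the 14 mice that have both, as the log2 ratio of Cluster 8 over Cluster 4 after 50 CPM were added to each level. By the mean ratio, 5 of the 10 genes were higher in Cluster 8 (Klk6, Apod, Hopx, Anln, Aplp1) and 5 in Cluster 4 (Ptgds, Opalin, Tspan2, Il33, Car2). The ranges over the 14 mice did not overlap between the clusters for 3 of the 10 (Hopx, Ptgds, Opalin), against 0.537% of 4096 genes with at least 50 CPM in either cluster, a contrast on which the genes were chosen and from which nothing is read.

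Klk6 encodes a secreted trypsin-like protease that can cleave myelin basic protein and activate protease-activated receptors. Its lowest, median and highest level over the 14 mice was 0, 109 and 599 CPM in Cluster 4 and 433, 1978 and 4496 CPM in Cluster 8. The 0 in Cluster 4 is that of cKO uninjured replicate 2, where 0 UMIs allow up to 38.2 CPM (3 counts). Cluster 8 was higher in 14 of 14 mice, although the highest mice of Cluster 4 overlap the lowest of Cluster 8. The means were 212 ± 227 and 2027 ± 1189 CPM (SD, n = 14), a log2 ratio of 3.21 ± 0.69, with 2.37 to 4.89 over mice. Apod encodes apolipoprotein D, a secreted lipocalin that binds arachidonic acid and other small lipids. Its lowest, median and highest level was 588, 1016 and 5929.9 CPM in Cluster 4 and 1069.6, 6068 and 13152 CPM in Cluster 8. It too was higher in Cluster 8 in 14 of 14 mice, with overlap between mice. The log2 ratio was 1.94 ± 0.69 (SD, n = 14), from means of 1851 ± 1654 and 6542 ± 3732 CPM.

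Hopx encodes a small homeodomain protein that does not bind DNA itself and works through partner proteins. In Cluster 4 its lowest, median and highest level was 10.6, 48.9 and 211 CPM, and in Cluster 8 it was 489, 872 and 1685 CPM. Every Cluster 8 value lay above every Cluster 4 value. The log2 ratio was 3.10 ± 0.49 (SD, n = 14), and the 14 mice gave 2.56 to 4.21, the narrowest range of ratios after Aplp1 among the 5 genes of the Cluster 8 side. Anln encodes anillin, which binds actin and septins in dividing cells and, in oligodendrocytes, helps septins assemble within myelin. Its mean was 292 ± 94.5 CPM in Cluster 4 and 786 ± 285 in Cluster 8 (SD, n = 14), a log2 ratio of 1.23 ± 0.65. It was higher in Cluster 8 in 13 of 14 mice, and cKO uninjured replicate 2 was the exception. Aplp1 encodes a membrane protein of the amyloid precursor family. Its mean was 2595 ± 1501 CPM in Cluster 4 and 3223 ± 1499.7 in Cluster 8 (SD, n = 14), a log2 ratio of 0.37 ± 0.26, higher in Cluster 8 in 13 of 14 mice. The SD between mice within each cluster exceeded the difference in the Aplp1 means, so the clusters differ in Aplp1 only as a small shift within mice.

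On the Cluster 4 side, Ptgds encodes the lipocalin-type enzyme that converts prostaglandin H to prostaglandin D. Its lowest, median and highest level over the 14 mice was 2191, 7173 and 19483 CPM in Cluster 4 and 64.8, 349.9 and 944 CPM in Cluster 8. The clusters did not overlap, and mice of Cluster 4 spread widely. The log2 ratio was −4.36 ± 0.55 (SD, n = 14), from means of 9230.0 ± 5195 and 421 ± 295 CPM. Opalin encodes a membrane glycoprotein made by oligodendrocytes and found in central myelin. Its lowest, median and highest level was 293, 566 and 865 CPM in Cluster 4 and 0, 31.8 and 145 CPM in Cluster 8, with no overlap. The 0 in Cluster 8 comes from WT 1 d replicate 1 and cKO 1 d replicate 1, where 0 UMIs allow up to 67.1 and 55.6 CPM. The log2 ratio was −2.74 ± 0.55 (SD, n = 14), and 121 UMIs were counted in Cluster 8 in all.

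Tspan2 encodes a tetraspanin, a membrane protein that spans the membrane repeatedly and gathers partner proteins. Its mean was 949 ± 292 CPM in Cluster 4 and 339 ± 99.2 in Cluster 8 (SD, n = 14), a log2 ratio of −1.35 ± 0.52, higher in Cluster 4 in 14 of 14 mice. The smallest difference within a mouse was −0.14, in cKO uninjured replicate 2. Il33 encodes a cytokine held in the nucleus and released when cells are damaged, which acts through the receptor encoded by Il1rl1. Its mean was 565 ± 227 CPM in Cluster 4 and 59.9 ± 44.3 in Cluster 8 (SD, n = 14), a log2 ratio of −2.47 ± 0.69, again higher in Cluster 4 in 14 of 14 mice. Car2 encodes a carbonic anhydrase of the cytosol, which interconverts carbon dioxide and bicarbonate and is abundant in oligodendrocytes and red blood cells. Its mean was 1613 ± 547 CPM in Cluster 4 and 1189.7 ± 421 in Cluster 8 (SD, n = 14), a log2 ratio of −0.42 ± 0.51, and 11 of 14 mice were higher in Cluster 4. Car2 is the weakest separator on this side: its mean ratio is smaller than its SD, and it turned sign when levels were averaged over cells (0.06) or cells were thinned to 500 UMIs (0.07).

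**Figure D1:**
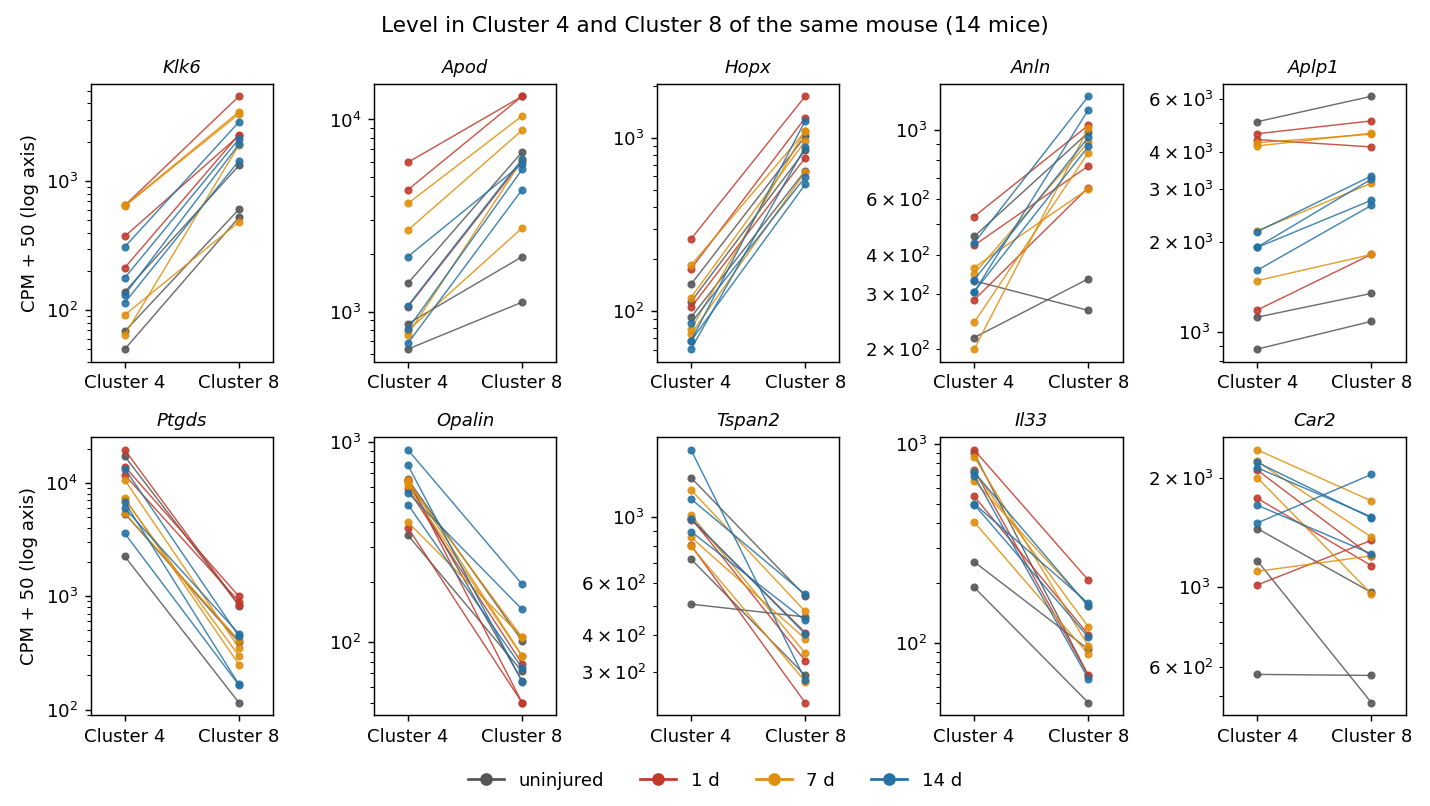
Level of each gene in Cluster 4 and Cluster 8, as CPM plus 50 on a log axis, with a line joining the clusters of each of 14 mice and colours for time after injury. Hopx (log2 ratio 3.10) and Klk6 (3.21) climb from Cluster 4 to Cluster 8 in all 14 mice, Ptgds (−4.36) and Opalin (−2.74) drop in all 14, the lines of Aplp1 change by −0.08 to 0.75, and those of Car2 run either way (−1.30 to 0.44).

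Across all 17 clusters, the mean level of each gene was taken over the mice with at least 10 cells in the cluster. Klk6 stood at 2027 ± 1189 CPM in Cluster 8 (SD, n = 14) and 203 ± 222 in Cluster 4 (n = 15), and the next was astrocyte Cluster 2 at 29.2 ± 49.2 (n = 11). Cluster 4 was above Cluster 2 in 7 of the 11 mice with both, so from there down the order of the clusters lies within the spread. Apod was shared with fibroblasts (Cluster 14), at 5504 ± 5748 CPM (n = 9) between Cluster 8 and Cluster 4. Cluster 8 was above the fibroblasts in 7 of 9 mice and the fibroblasts above Cluster 4 in 6 of 9, so neither step exceeds the spread between mice. Hopx in Cluster 8 was above every other cluster, the next being Cluster 13 (named Unk by the authors) at 126 ± 104 CPM (n = 10) and astrocyte Cluster 5 at 105 ± 44.5 (n = 14), while Cluster 4 at 62.9 ± 56.9 (n = 15) was among the astrocytes and immune cells. Anln and Aplp1 were highest in Clusters 8 and 4 in that order, and were next at 83.5 ± 73.4 CPM in red blood cells (Cluster 17, n = 4) for Anln and 255 ± 106 in astrocyte Cluster 5 (n = 14) for Aplp1.

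The genes of the Cluster 4 side had other second places. Ptgds stood at 8934 ± 5135 CPM in Cluster 4 (SD, n = 15), then 3667 ± 5163 in fibroblasts (n = 9), 421 ± 295 in Cluster 8 (n = 14) and 342 ± 468 in OPCs (n = 14). Cluster 4 exceeded the fibroblasts in 8 of 9 mice, and Cluster 8 the OPCs in 11 of 14 mice, although their SDs overlap. Opalin stood at 533 ± 149.8 CPM in Cluster 4 (n = 15), and Cluster 8 was at the level of OPCs (34.3 ± 29.3, n = 14), above them in 6 of 14 mice. Tspan2 formed a graded series, with 928 ± 293 CPM in Cluster 4 (n = 15), 339 ± 99.2 in Cluster 8 (n = 14) and 148 ± 117 in OPCs (n = 14), and Cluster 8 was above the OPCs in 13 of 14 mice. Il33 was second in astrocyte Cluster 5 at 158 ± 57.9 CPM (n = 14), below Cluster 4 in 14 of 14 mice, and Cluster 8 came sixth, after 3 astrocyte clusters and the fibroblasts. Car2 was next in red blood cells, after Clusters 4 and 8, at 728 ± 875 CPM (n = 4), where Cluster 8 was above them in 2 of 4 mice. In OPCs, each of the 10 genes was below its level in the cluster whose side it is on.

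**Figure D2:**
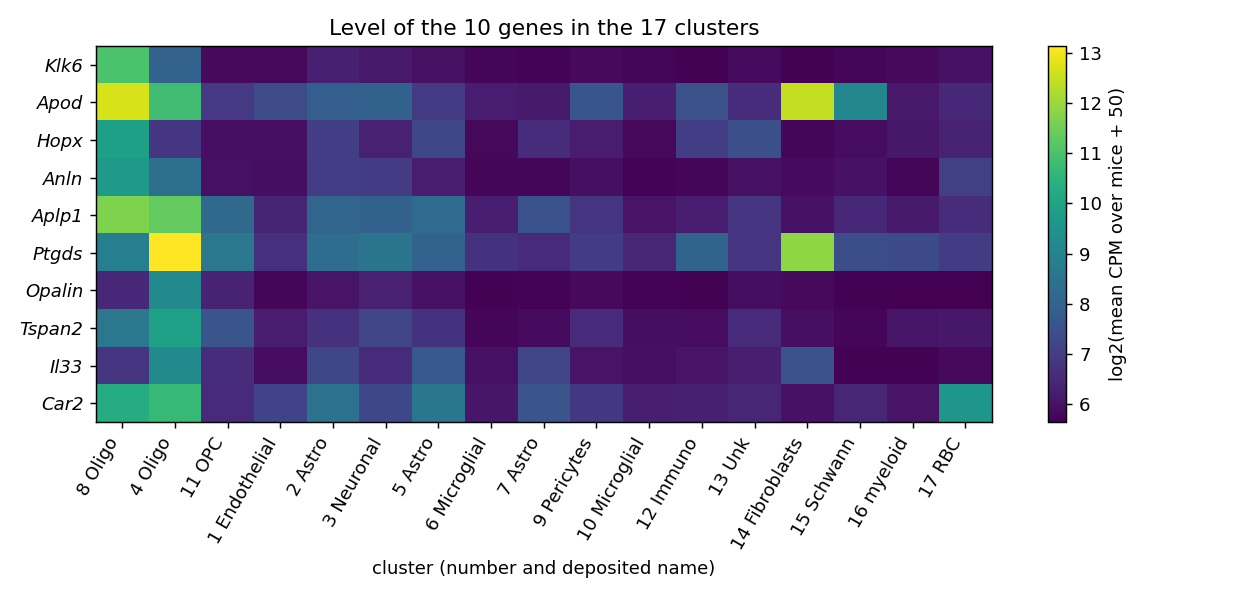
Heat map of the mean level of the 10 genes in the 17 clusters, as log2 of CPM plus 50, averaged over mice with at least 10 cells in the cluster. Klk6, Hopx and Anln are brightest in Cluster 8, Opalin, Tspan2 and Il33 in Cluster 4, Aplp1 and Car2 in both, and Apod and Ptgds also in fibroblasts (5504 and 3667 CPM).

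Detection in single cells was read after every cell was thinned to 500 UMIs, since cells with more UMIs detect more genes, which kept 1530 cells of Cluster 4 and 798 of Cluster 8. The unthinned medians were 1115 UMIs per cell in Cluster 4, 1003.5 in Cluster 8 and 890 in the endothelial Cluster 1, which serves as a reference. Free RNA and expression in the endothelial cells were not told apart. Klk6 was detected in 5.88% of Cluster 4 cells (95% interval 4.76 to 7.18%, exact Clopper-Pearson, which covers counting error only) and 40.1% of Cluster 8 cells (36.7 to 43.6%), against 0.444% of endothelial cells. Ptgds was detected in 44.8% of Cluster 4 cells (42.3 to 47.4%) and 136 of 798 Cluster 8 cells (14.5 to 19.8%), against 5.10% of endothelial cells. Both genes thus lay above the endothelial share in both clusters. In OPCs (Cluster 11), Klk6 was detected in 0.429% and Ptgds in 9.44% of cells. For Hopx the shares were 2.48% and 26.3% in Clusters 4 and 8 against 1.11%. For Opalin they were 13.3% and 2.88% against 0.507%, and for Il33 15.0% and 3.63% against 0.919%. Apod was detected in 32.8% and 68.3% of cells against 6.06%. The other 4 genes ranged from 12.4% (Anln) to 45.4% (Aplp1) in Cluster 4 and from 13.3% (Tspan2) to 59.4% (Aplp1) in Cluster 8, and none of the 4 exceeded 5.64% in endothelial cells. Car2 went against its CPM order, with 31.7% of cells in Cluster 4 and 36.6% in Cluster 8.

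Klk6 and Ptgds, the first genes of either side, were also counted in the same cells. In Cluster 4, 26 of 1530 thinned cells (1.70%) held UMIs of both, 64 of Klk6 alone, 660 of Ptgds alone and 780 of neither. In Cluster 8, 31 of 798 cells (3.88%) held both, 289 Klk6 alone, 105 Ptgds alone and 373 neither. In detected UMIs, the clusters are thus not pure opposites cell by cell at 500 UMIs per cell: Cluster 4 holds cells with Klk6 and Cluster 8 holds cells with Ptgds, both above the endothelial shares when pooled over mice. Free RNA as a source of these UMIs was not tested. Per mouse, the share of Cluster 8 cells with Klk6 ran from 11.3% (cKO uninjured replicate 2) to 81.4% (WT 7 d replicate 1), and in Cluster 4 from 0% (cKO uninjured replicate 2) to 25.4% (WT 7 d replicate 1). It was 16.9% in cKO 7 d replicate 1 and no more than 10.7% in the other 13 mice of Cluster 4, so 2 mice supply much of the pooled share there. The share of Cluster 8 cells with Ptgds ran from 3.77% (cKO uninjured replicate 2) to 31.5% (cKO 1 d replicate 2). The share of Cluster 4 cells with Ptgds ran from 21.0% (WT 7 d replicate 2) to 79.4% (WT uninjured replicate 1 and cKO 1 d replicate 1).

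Cluster 8 made up 19.4 to 48.8% of the cells of both clusters per mouse, with a median of 33.3%. By time, the share was 35.5 ± 15.2% in uninjured mice (SD, n = 4), 35.9 ± 4.32% at 1 d (n = 3), 38.3 ± 3.83% at 7 d (n = 4) and 25.3 ± 4.32% at 14 d (n = 4). The 14 d mice, at 19.7 to 29.0%, lie below every 1 d and 7 d mouse but within the range of the uninjured mice, and the difference was not tested. A level summed over both clusters therefore also carries this mix.

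Injury was tested on UMIs summed per mouse over Clusters 4 and 8, with the mouse as the replicate, by a fit of group means across all genes in edgeR with Benjamini-Hochberg adjustment over all genes tested. The lone WT 1 d mouse is assumed there to vary like the other groups. The comparisons at 1, 7 and 14 d share their 4 uninjured mice. All 10 genes passed the filter on low counts in each of these comparisons.

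At 1 d, 0 of the 10 genes passed an adjusted p of 0.05, where edgeR called 0% of 8624 genes, 413 had an unadjusted p under 0.05 and DESeq2 called 1 (Serpina3n). The median log2 change was 0.64 over the 10 genes, 8 of them with a positive value, and −0.05 over all genes tested. At 7 d the count was again 0 of 10, where edgeR called 0% of 8624 genes, 396 had an unadjusted p under 0.05 and DESeq2 called 1 (Serpina3n). The median was 0.29 over the 10 genes, 7 of them positive, and 0.02 over all. At 14 d it was 0 of 10, where edgeR called 0% of 8624 genes, 431 had an unadjusted p under 0.05 and DESeq2 called 1 (C4b). The median was 0.23 over the 10 genes, 7 of them positive, and 0.02 over all. With replicate number as a block, edgeR called 1 gene at 1 d (Serpina3n), 0 at 7 d and 6 at 14 d (Slco1a4, Slc7a5, Nefh, Serpina3n, Cldn5 and C4b), and none of the 10 genes. With the series of animal numbers in the design it called 2, 8 and 118 genes at 1, 7 and 14 d, again none of the 10.

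Klk6 had the largest log2 changes of the 10 genes at each time in Clusters 4 and 8 together. In Clusters 4 and 8 together it was at 508, 231, 81.5 and 176 CPM in the uninjured mice, 2209.9, 1136 and 1041 in the 3 mice at 1 d, 1883, 137, 1723 and 999 in the 4 at 7 d, and 1430.4, 481, 932 and 506 in the 4 at 14 d. All 3 mice at 1 d lie above all 4 uninjured mice, as do 3 of 4 at 7 d, with WT 7 d replicate 2 the exception, and 2 of 4 at 14 d. The log2 change at 1 d was 2.54 ± 0.75 (SE; edgeR adjusted p 0.868, 0.000820 to 1 over the alternatives), with 3 of 3 mice above the uninjured. At 7 d it was 2.12 ± 0.71 (edgeR adjusted p 0.926, 0.0123 to 1 over the alternatives), with 3 of 4 mice above the uninjured. At 14 d it was 1.63 ± 0.69 (edgeR adjusted p 0.893, 0.0702 to 1 over the alternatives), with 2 of 4 mice above them. None of the 3 passed the threshold, and the lowest adjusted p at 1 and 7 d came from a fit with no filter on low counts, the only alternative in which any of the 10 genes was called. Without WT 7 d replicate 1 the 7 d value was 0.69, so it rests in part on that mouse.

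Apod followed the same order of times. It was at 3252, 778, 779.7 and 1209.9 CPM in the uninjured mice, 7934, 9048 and 3128 in the 3 mice at 1 d, 6717, 1212, 5197 and 3591 in the 4 at 7 d, and 3688, 1773, 3144 and 1863 in the 4 at 14 d. WT uninjured replicate 1 lies above cKO 1 d replicate 2 and 3 of the 4 mice at 14 d, so the groups overlap at every time. The log2 change was 2.04 ± 0.69 at 1 d (SE; edgeR adjusted p 0.868, 0.111 to 1 over the alternatives), with 2 of 3 mice above all uninjured mice. At 7 d it was 1.31 ± 0.64 (edgeR adjusted p 0.926, 0.560 to 1 over the alternatives), with 3 of 4 mice above them. At 14 d it was 0.63 ± 0.63 (edgeR adjusted p 0.954, 0.427 to 1 over the alternatives), with 1 of 4 mice above them. With each mouse left out, the Apod values ran from 1.60 (without cKO 1 d replicate 1) to 2.52 at 1 d, from 0.45 (without WT 7 d replicate 1) to 1.78 at 7 d and from 0.30 (without WT 14 d replicate 1) to 1.14 at 14 d, each highest without WT uninjured replicate 1. Ptgds, the first gene of Cluster 4, gave 0.94 ± 0.57 at 1 d, −0.19 ± 0.52 at 7 d and −0.12 ± 0.51 at 14 d, none larger than 2 SE. With each mouse left out these ran from 0.61 to 1.29, −0.46 to 0.18 and −0.66 to 0.26, so the sign at 7 and 14 d is not fixed. Car2 gave 0.49 ± 0.42, 0.59 ± 0.38 and 0.68 ± 0.38 (edgeR adjusted p 0.893 at 14 d, 0.276 to 1 over the alternatives), with all 4 mice at 14 d above the uninjured mice. It was 0.26 at 1 d without WT 1 d replicate 1 and 0.37 at 7 d without cKO 7 d replicate 1. The other 6 genes gave values from −0.35 (Opalin at 1 d) to 0.82 (Hopx at 1 d), each within 2 SE of 0. Hopx rests on the uninjured cKO mice, of which replicate 1 had 2 UMIs: without replicate 2 it was 2.59, 2.13 and 1.76 at 1, 7 and 14 d, and its lowest values with another mouse left out were 0.33, −0.25 and −0.82. With each mouse left out, Aplp1 ran from 0.23 to 1.23 at 1 d, 0.04 to 1.05 at 7 d and −0.30 to 0.56 at 14 d, and Il33 from 0.20 to 1.02, −0.04 to 0.71 and 0.02 to 0.76, each highest without WT uninjured replicate 1. Anln, Opalin and Tspan2 stayed between −0.64 and 0.79 over these times.

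**Figure D3:**
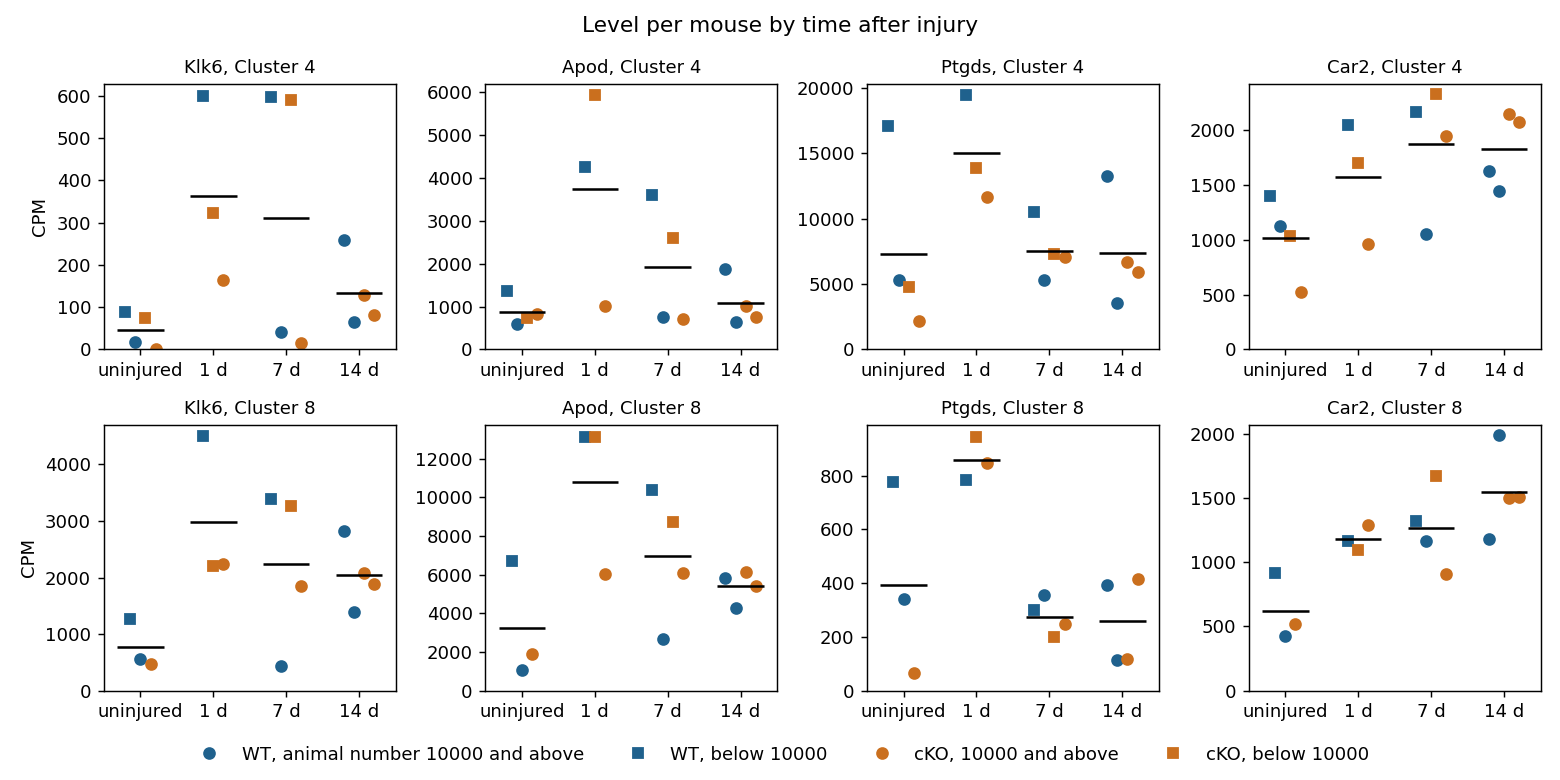
Levels of Klk6, Apod, Ptgds and Car2 in CPM on a linear axis by time after injury, in Cluster 4 (15 mice) and Cluster 8 (14 mice). Each point is a mouse, coloured by genotype, with a marker for the series of animal numbers and a bar at the mean. In Cluster 8, Klk6 is at 475 to 1273 CPM in 3 uninjured mice and 433 to 4496 CPM in 11 injured mice, and the Apod values of injured mice with animal numbers below 10000 sit above those of the other injured mice in the same cluster.

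Series of animal numbers and time overlap in these values. In Cluster 8 of injured mice, Klk6 was at 3342 ± 937 CPM (SD, n = 4; 2204 to 4496) with animal numbers below 10000 and 1815 ± 749 (n = 7; 433 to 2824) with higher numbers. In Cluster 4 it was at 528 ± 136 (324 to 599) and 108 ± 83.9 (14.5 to 260.0), with no overlap. Within the higher numbers alone, the 2 uninjured mice were at 475 and 556 CPM in Cluster 8, below 6 of the 7 injured mice. With the series as a term in the edgeR fit, the Klk6 change was 2.33 at 1 d, 1.89 at 7 d and 1.98 at 14 d, and the adjusted p stayed above 0.05. Apod in Cluster 8 was at 11354 ± 2180.2 CPM (n = 4; 8733 to 13152) in injured mice of the lower numbers and 5215 ± 1302 (n = 7; 2672 to 6159.6) in the others, again with no overlap. Aplp1 in Cluster 4 was at 4324 ± 177 CPM (n = 4) and 1733 ± 369 (n = 7). Car2 in Cluster 8 was at 1313 ± 259.5 CPM (n = 4) and 1364 ± 346 (n = 7), and the series overlap. Hopx in Cluster 4 was at 136 ± 58.0 CPM (n = 4; 70.1 to 211) and 27.2 ± 14.9 (n = 7; 10.6 to 55.3), with no overlap. Uninjured mice showed part of this order in Cluster 4. Klk6 was at 74.8 and 89.1 CPM with lower numbers against 0 and 18.7 with higher ones. Aplp1 was at 1620 and 5001 CPM against 828 and 1073. Apod overlapped there, and Hopx had the reverse order, at 12.5 and 42.5 CPM against 63.7 and 93.3. Among injured mice only, the series with the highest Klk6, Apod, Aplp1 and Hopx is also the one with the fewest UMIs per cell. In Cluster 4, its median mitochondrial share per mouse was 3.87 to 5.0% after injury. The other injured mice were at 1.70 to 2.55%, except cKO 1 d replicate 2 at 4.02%. In Cluster 8 these shares were 2.96 to 3.30% and 1.19 to 7.84%, and their part was not tested.

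Markers of other cells differ between the same mice. Astrocyte markers in Clusters 4 and 8 summed to 411 to 555 CPM in the 4 injured mice with numbers below 10000 and 606 to 1958 in the 7 other injured mice, against 429 to 2589 in the 4 uninjured mice. Neuron markers summed to 37.0 to 87.7 CPM, 161 to 979.7 and 135 to 1202 in those groups, and microglia markers to 32.0 to 91.1, 143 to 406 and 156 to 462. Oligodendrocyte markers summed to 40379.8 to 53588, 29898 to 52281 and 24147 to 48123 CPM. Schwann cell markers did not follow this, at 232 to 574 CPM in the 4 mice with numbers below 10000, 159 to 349 in the 7 others and 93.1 to 320.5 in the uninjured mice, and red blood cell markers were highest in WT 1 d replicate 1 (841 CPM). The low series thus carries the least of the astrocyte, neuron and microglia markers among injured mice but not of all markers of other cells, and the part of this, and of depth, in the values of the 10 genes was not tested.

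Genotype was compared after injury, as cKO against WT averaged over 1, 7 and 14 d. The question is whether deletion of Ryk by a GFAP-driven Cre is accompanied by other levels in oligodendrocytes. None of the 10 genes passed (0 of 10), where edgeR called 0% of 8624 genes, 183 reached an unadjusted p under 0.05 and the DESeq2 count was 0. For Klk6, the lowest, median and highest level in Clusters 4 and 8 was 506, 1020.2 and 1723 CPM in the 6 injured cKO mice, and the 5 injured WT mice were at 2209.9, 1883, 137, 1430.4 and 481. The genotypes overlap fully. The log2 change was −0.36 ± 0.58 (SE; edgeR adjusted p 1, also 1 in every alternative), and it was 0.59 without WT 7 d replicate 1 and −0.66 without WT 7 d replicate 2. Over the 10 genes the values ran from −0.44 (Ptgds) to 0.18 (Hopx), with a median of −0.07 and 5 of 10 positive, against a median of 0.06 over all genes. The SE of these values lay between 0.30 (Opalin) and 0.64 (Hopx), so a difference of that size could not be seen with these mice. With each mouse left out, Ptgds ran from −0.64 to −0.06 and Hopx from −0.27 to 0.55.

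Injury was then tested within each cluster, with all times after injury averaged. In Cluster 4, 0 of 10 genes passed, where edgeR called 0% of 6302 genes, 372 reached an unadjusted p under 0.05 and the DESeq2 count was 0. With replicate number as a block, 6 genes were called, all lower (Gpr37l1, Enho, Slco1a4, Nefh, Nefl and Cldn5), and with the series of animal numbers in the design 65, in both cases none of the 10 genes. The median log2 change was 0.44 over the 10 genes, 8 of them positive, and −0.04 over all genes. Klk6 in Cluster 4 was at 89.1, 18.7, 74.8 and 0 CPM in the uninjured mice and at a lowest, median and highest of 14.5, 164 and 599 CPM in the 11 injured mice. The injured mice spread from within the uninjured range to far above it. The log2 change was 2.20 ± 1.19 (SE; edgeR adjusted p 0.833, 0.0846 to 1 over the alternatives), with 7 of 11 injured mice above all uninjured mice, and 5.47 without cKO uninjured replicate 1, which leaves a group with 0 UMIs. Car2 in Cluster 4 was at 1397, 1129, 1034 and 522 CPM uninjured and at a lowest, median and highest of 961, 1950.0 and 2337 CPM injured. Its log2 change was 0.69 ± 0.30 (SE; unadjusted p 0.0355, edgeR adjusted p 0.817, 0.282 to 1 over the alternatives), with 9 of 11 injured mice above all uninjured mice.

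In Cluster 8, 0 of 10 genes passed, where edgeR called 0% of 5369 genes and 528 had an unadjusted p under 0.05, while DESeq2 called 83, of which 77 were lower and none was among the 10. The median over all genes was 0.37 with TMM scaling and 0.24 with relative log expression (RLE) scaling, so values in this cluster are read against a shifted centre. The median over the 10 genes was 0.58, with 7 positive. Klk6 in Cluster 8 was at 1273, 556 and 475 CPM in the 3 uninjured mice and at a lowest, median and highest of 433, 2204 and 4496 CPM in the 11 injured mice. All but WT 7 d replicate 2 of the injured mice were above all uninjured mice. The log2 change was 1.38 ± 0.65 (SE; edgeR adjusted p 0.504, 0.124 to 1 over the alternatives), with 10 of 11 injured mice above all uninjured mice. Tspan2 had the lowest value relative to its error, −0.80 ± 0.39 (SE; edgeR adjusted p 0.507, 0.231 to 1 over the alternatives), with 3 of 11 injured mice below all uninjured mice. Il33 gave 3.97 ± 2.03, a value that depends on the prior count, since the uninjured cKO mouse had 0 UMIs, which allow up to 64.8 CPM, and it was 1.17 without that mouse. The count of genes called in this cluster was 27 with the series of animal numbers in the design, and it turns on 1 control: without WT uninjured replicate 1 edgeR called 267 genes, none of them among the 10.

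Whether injury changes the difference between the clusters was tested within mice, as an interaction of cluster and injury over the 14 mice with both clusters. None of the 10 genes passed (0 of 10), where edgeR called 0.0346% of 5787 genes, 268 had an unadjusted p under 0.05 and DESeq2 called 1 (C1qa). The 2 genes called were C1qa and Gm10800, both with a lower difference after injury, and C1qa was no longer called without WT uninjured replicate 1 or with the series of animal numbers in the design, nor Gm10800 by DESeq2, in thinned cells or without WT uninjured replicate 2. The median over all genes was 0.13 with TMM and −0.04 with RLE scaling, and over the 10 genes it was 0.12, with 6 positive. Anln had the smallest unadjusted p of the 10: its Cluster 8 minus Cluster 4 difference was 0.78 ± 0.37 larger on the log2 scale in injured mice (SE; unadjusted p 0.0384, edgeR adjusted p 1, 0.858 to 1 over the alternatives). Its log2 ratio within the 3 uninjured mice was 1.10, 0.62 and −0.31, 2 of them below and 1 within the range of the injured mice, and without cKO uninjured replicate 2, the mouse with the negative ratio, the value was 0.48. Klk6 gave −0.68 ± 0.88 and Ptgds −0.42 ± 0.41, both within 2 SE of 0. With each mouse left out, the Ptgds value ran from −0.73 to −0.09. Without WT uninjured replicate 1 the Klk6 value was −2.25, so with 3 uninjured mice its size is poorly fixed, and no change of the difference between the clusters was detected.

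Genes whose levels over the 17 clusters most resemble each of the 10 were found among 10193 genes by the Pearson correlation (r) of log2 CPM, a description in which the clusters share mice and depth. For Klk6 they were Cyp2j12 (0.987), Gm9895 (0.984), Gm32122 (0.975), and for Hopx Gm12326 (0.886), Gm32122 (0.860), Nkx2-9 (0.860), which share Gm32122. For Apod they were Ctsk (0.904), Adamtsl4 (0.878), Itgb4 (0.874), and for Anln Cyp2j12 (0.959), Tmem151a (0.954), Nacad (0.952). Aplp1 was most like Stmn4 (0.975), Tmem88b (0.972), Nipa1 (0.964). On the Cluster 4 side the values were lower for the genes that other cell types also hold. Ptgds was most like Pcolce2 (0.899), Adamtsl4 (0.878), Adamts2 (0.856), and Opalin most like Gm42756 (0.981), Tnni1 (0.976), Npsr1 (0.973). Tspan2 was most like Tyro3 (0.964), St18 (0.961), Myrf (0.960), of which St18 and Myrf encode transcription factors of oligodendrocytes. Il33 was most like Clmn (0.812), Ptgds (0.795), Zer1 (0.791), with the lowest first value of the 10 genes. Car2 was most like 1190005I06Rik (0.915), Bpgm (0.902), Tmem88b (0.876), and Bpgm is an enzyme of red blood cells.

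Genes around the 10 in pathway or family were read in 11 lists of 82 genes. Over the 7 comparisons these gave 389 tests, in which edgeR called 0, 41 had an unadjusted p under 0.05 (10.5%, against 2591 of 51954 tests of all genes, or 4.99%), and DESeq2 made 7 calls in 5 genes (Mobp, Mbp, Bcas1, Serpina3n and C4b). Over all genes, the DESeq2 counts are those given with each comparison above, and most of those calls were in Cluster 8. The share differs between comparisons, from 183 of 8624 genes for cKO against WT to 528 of 5369 in Cluster 8, and the lists were written with earlier results of these data known, so the counts below are descriptions. The immune and stress list held 4 of those calls and 15 of the unadjusted p under 0.05, in 51 tests of 8 of its 10 genes. Serpina3n, a secreted inhibitor of serine proteases, was at no more than 26.2 CPM in the 4 uninjured mice, and at 776 to 1239 CPM in the 3 mice at 1 d, 86.6 to 1180.3 in the 4 at 7 d and 177 to 522 in the 4 at 14 d. Every injured mouse was above every uninjured mouse. The log2 change was 6.37 ± 1.11 at 1 d (SE; edgeR adjusted p 0.598), 5.55 ± 1.07 at 7 d (adjusted p 0.926) and 4.53 ± 1.07 at 14 d (adjusted p 0.883), values that depend on the prior count because some uninjured mice had 0 UMIs. C4b, a complement component, gave 2.93 ± 0.55 at 14 d (edgeR adjusted p 0.624), with 4 of 4 mice above all uninjured mice. At 1 d 1 of 3 mice was above them in C4b, and at 7 d 2 of 4. DESeq2 called Serpina3n at 1 d, at 7 d and in Cluster 8, and C4b at 14 d.

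The genes of myelin itself gave calls by DESeq2 only, and only in Cluster 8, the comparison with the most DESeq2 calls over all genes. Of the 10 in the myelin list edgeR called 0, with medians of 0.24, 0.33 and 0.11 at 1, 7 and 14 d, 6 of 70 tests at an unadjusted p under 0.05 and 2 DESeq2 calls (Mobp and Mbp in Cluster 8). Mbp, which encodes myelin basic protein, gave −2.50 ± 0.60 in Cluster 8 (SE; edgeR adjusted p 0.287; 0 of 11 injured mice below all uninjured mice). In the list of newly formed oligodendrocytes (7 of 10 genes tested, 9 of 43 tests at an unadjusted p under 0.05, 1 DESeq2 call), the medians were 0.07, 0.93 and 0.35 at 1, 7 and 14 d, and in Cluster 8 the median was 0.81 with 3 of 4 genes positive. The exception there, Bcas1, gave −1.95 ± 0.45 in Cluster 8 (edgeR adjusted p 0.287; 6 of 11 injured mice below all uninjured mice) and Enpp6 0.93 ± 0.39 at 7 d (adjusted p 0.926; 3 of 4 mice above them). All 8 oligodendrocyte transcription factors had positive values at 1, 7 and 14 d, with medians of 0.59, 0.50 and 0.52, while edgeR and DESeq2 called 0 and 3 of 52 tests had an unadjusted p under 0.05. Among them Olig1 gave 0.79 ± 0.33 in Cluster 4 (edgeR adjusted p 0.817; 4 of 11 injured mice above all uninjured mice) and St18 1.60 ± 0.76 in Cluster 8 (adjusted p 0.504; 0 of 11).

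Most partners of the secreted proteins and enzymes had too few UMIs in these clusters to be tested. In the prostaglandin D list, where Ptgds itself acts, 1 of 6 genes passed the filter (Pla2g4a, which frees arachidonic acid), with 1 of 7 tests at an unadjusted p under 0.05 and 0 calls by edgeR or DESeq2. Pla2g4a was at 73.6 ± 32.2 CPM in Cluster 4 (SD, n = 15) and 139.8 ± 75.5 in Cluster 8 (n = 14), and Ptgs1, which makes the substrate of Ptgds, at 5.52 and 4.72 CPM. Of the IL-33 receptor list 4 of 6 genes were tested, with 0 calls by edgeR or DESeq2 and 0 of 22 tests at an unadjusted p under 0.05. Its co-receptor gene Il1rap was at 365 and 275 CPM in Clusters 4 and 8 and Traf6, a signalling adaptor, at 45.0 and 24.0, whereas the receptor gene Il1rl1 did not pass the filter. Among kallikreins and protease-activated receptors 1 of 7 genes was tested, Klk8, which gave 5.24 ± 2.31 at 1 d (SE; edgeR adjusted p 0.868; 3 of 3 mice above all uninjured mice, which were at 0 to 8.01 CPM, so the value depends on the prior count), with 1 of 7 tests at an unadjusted p under 0.05 and 0 DESeq2 calls, and Klk9 was at 2.99 and 5.72 CPM. Klk8 gave 4.61 at 7 d and 1.94 at 14 d, with 2 of 4 mice above all uninjured mice at each of these times.

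The family relatives of the other genes were read in the same way. In the carbonic anhydrase list 4 of 8 genes were tested, with 0 calls by edgeR or DESeq2 and 2 of 22 tests at an unadjusted p under 0.05. Its medians were −1.39, −0.04 and −0.54 at 1, 7 and 14 d, with 2 of the 4 genes lower at 14 d, and the most abundant, Car14 and Car10, gave 0.43 ± 0.43 and 0.30 ± 0.77 there. All 7 tetraspanins were tested, with 0 calls by either tool and 3 of 49 tests at an unadjusted p under 0.05 and medians of 0.47, 0.33 and −0.17 at 1, 7 and 14 d, and Cd63 gave 1.75 ± 0.61 (edgeR adjusted p 0.868; 3 of 3 mice above all uninjured mice) and Cd81 0.55 ± 0.48 at 1 d. For Cd63, 2 of 4 mice were above all uninjured mice at 7 d and 2 of 4 at 14 d. All 6 genes of the amyloid precursor list were tested, with 0 calls by either tool and 1 of 40 tests at an unadjusted p under 0.05 and medians of 0.41, 0.21 and 0.14 at 1, 7 and 14 d, and App gave −0.05 ± 0.45 and Aplp2 0.40 ± 0.42 at 1 d. Of 4 septins, whose products work with anillin, 0 were called by either tool and 0 of 26 tests had an unadjusted p under 0.05. In Clusters 4 and 8, Sept4 was at 979 and 507 CPM and Sept7 at 847 and 623, lower in Cluster 8, while Sept8 was at 234 and 379.8 and Sept2 at 18.5 and 33.6, higher there.

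All 10 genes are annotated as protein coding, at these positions in GENCODE vM21 on GRCm38 (mm10). On the Cluster 8 side these are Klk6 (ENSMUSG00000050063.18) at chr7:43824499-43832030, Apod (ENSMUSG00000022548.14) at chr16:31296192-31314808, Hopx (ENSMUSG00000059325.14) at chr5:77086988-77115121, Anln (ENSMUSG00000036777.8) at chr9:22332012-22389188 and Aplp1 (ENSMUSG00000006651.8) at chr7:30434982-30445535. On the Cluster 4 side they are Ptgds (ENSMUSG00000015090.13) at chr2:25466709-25470046, Opalin (ENSMUSG00000050121.9) at chr19:41061710-41077113, Tspan2 (ENSMUSG00000027858.13) at chr3:102734529-102801513, Il33 (ENSMUSG00000024810.16) at chr19:29925114-29960718 and Car2 (ENSMUSG00000027562.12) at chr3:14886273-14900770. Klk6 and Aplp1 share chromosome 7, Tspan2 and Car2 chromosome 3, and Opalin and Il33 chromosome 19, none of them as neighbours.

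Promoter windows from RefSeq (GRCm38.p6, 250 bases before a start) were held for 9 of the 10 genes, in 13 windows, with Car2 the gene with no entry. They were searched on both strands for the core that Sox factors such as Sox10 recognise (ACAAAG), for an E-box (CAGCTG) and for a TATA box (TATAAA). The Sox core was in 1 window each of Klk6, Apod, Opalin and Tspan2 and in 16.5% of 32851 promoters, the E-box in 1 window of Ptgds (13.0% of all) and the TATA box in 2 windows of Il33 (12.4% of all). The match thus occurs on both sides of the cluster difference, and a match is a description of letters, not a binding site. The windows of Klk6 (chr7:43824294-43824498, plus strand), Apod (chr16:31314809-31315058, minus strand) and Opalin (chr19:41077114-41077363, minus strand) are shown because they hold the match outside annotated exons in genes of both sides, read 5′ to 3′ in the direction of the gene, with the match in capitals. For Klk6 the stretch shown is the 205 of 250 bases ahead of the first annotated exon.
Klk6: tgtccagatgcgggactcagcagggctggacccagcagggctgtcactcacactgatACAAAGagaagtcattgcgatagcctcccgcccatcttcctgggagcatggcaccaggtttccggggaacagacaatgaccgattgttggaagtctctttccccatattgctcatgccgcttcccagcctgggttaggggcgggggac
Apod: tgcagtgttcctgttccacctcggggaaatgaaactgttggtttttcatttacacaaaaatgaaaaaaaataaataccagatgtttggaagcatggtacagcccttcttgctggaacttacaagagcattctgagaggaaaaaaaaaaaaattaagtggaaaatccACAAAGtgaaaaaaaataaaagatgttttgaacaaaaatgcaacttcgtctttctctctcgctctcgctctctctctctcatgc
Opalin: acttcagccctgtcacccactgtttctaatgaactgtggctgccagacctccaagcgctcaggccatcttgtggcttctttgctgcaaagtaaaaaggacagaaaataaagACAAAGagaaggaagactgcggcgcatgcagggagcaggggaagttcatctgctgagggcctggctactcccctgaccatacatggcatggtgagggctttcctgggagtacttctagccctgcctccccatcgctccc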

How the data were processed

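The authors ran Cell Ranger on mm10 and worked in R 4.1.2 with Seurat. They kept cells that showed over 200 genes and a mitochondrial share below 25%, joined libraries with Harmony and made Leiden clusters at resolution 0.5. The deposited matrix holds raw counts of UMIs per gene and cell, and the deposited cell table gives the mitochondrial percent of each cell. No step against doublets is named in the sources used, and none was run here.

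Counts were summed per mouse over each cluster, for mice with at least 50 cells in all and at least 10 in the cluster, and read as CPM. Tests used edgeR 4.0.16 in R 4.3.3 (TMM, filterByExpr, group means, robust quasi-likelihood, adjusted p under 0.05), with DESeq2 1.42.0 as an alternative. Other values came from Python 3.11.15 with pandas 2.3.3, numpy 2.4.6, scipy 1.17.1 and matplotlib 3.10.9. The other alternatives were RLE scaling, no filter on low counts, at least 30 cells, cells thinned to 500 UMIs (seed 1), conditions from the cell names, replicate number as a block, the series of animal numbers (split at 10000), each mouse left out, and, for ratios, averages over cells and 10 or 200 CPM added in place of 50.

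The 10 genes and the 11 gene lists (myelin structure, newly formed oligodendrocytes, transcription factors, immune and stress genes, prostaglandin D, IL-33 receptor, kallikreins and receptors, carbonic anhydrases, tetraspanins, amyloid precursor family, septins) were chosen with earlier results of these data known, and values of some genes in them are not reported here. Genes named beside them are the 3 most alike over the clusters and, per list, the 2 most abundant in Clusters 4 and 8 (edgeR called none), with all 4 septins and the receptor of IL-33; genes named because an alternative or DESeq2 called them were chosen after their values were seen. The first fit has no block. The block by replicate number rests on the batch column of the cell table, which repeats that number. Over 21 pairs of groups, the correlation between same-numbered mice of their deviations from the group means ran from −0.136 to 0.484 (median 0.251), over 0.1 in 15.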

Additional observations from a re-analysis of the deposited data

Results flagged for a closer look

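Results of 2 kinds stood apart. In groups of 4 mice, the level of a gene in Clusters 4 and 8 was checked for a mouse far from the others, its gap to the nearest, as a share of the whole range, being past Dixon's 95% critical value. Of 30 groups 3 passed, and chance alone picks out about 1 in 20. Anln was highest in WT uninjured replicate 1 at 591 CPM, with the other uninjured mice at 214 to 268. The same mouse was highest for Aplp1, at 5387 CPM against 905 to 1606. Il33 was lowest in WT 7 d replicate 2 at 278 CPM, with the other 7 d mice at 391 to 403.

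A difference between the clusters in their response to injury was found by the interaction test for 2 genes outside the 10. C1qa, a complement gene of microglia, had a log2 difference of −5.64 ± 0.87 (SE; edgeR adjusted p 0.000210), and −5.15 ± 1.37 with the series of animal numbers in the design (adjusted p 0.269). It rests on WT uninjured replicate 1, without which it was −2.75 (adjusted p 0.558). That mouse had 79 UMIs in Cluster 8 (292 CPM), while the other uninjured mice were at 0 and 64.8 CPM there and the injured mice at 0 to 98.0 CPM. Its microglia markers summed to 355 CPM in Cluster 8 and 46.6 in Cluster 4. They summed to 485 and 448 CPM in WT uninjured replicate 2, and to 475 and 446 in cKO uninjured replicate 2. Gm10800, a predicted gene, had −4.16 ± 0.74 (SE; edgeR adjusted p 0.00240), and −2.63 without WT uninjured replicate 2 (adjusted p 1); DESeq2 and thinned cells gave no call either (adjusted p 1 and 0.909). It ran from 0 to 5843 CPM in Cluster 4, highest in WT 14 d replicate 2, and from 0 to 157 CPM in Cluster 8, and the 4 injured mice with animal numbers below 10000 had 0 UMIs in both clusters. What lies behind either was not tested.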

How the results depend on the processing

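The 10 genes kept 0 calls in all 7 comparisons under every alternative but 1: with no filter on low counts, Klk6 was called at 1 d and 7 d. Of their ratios between clusters, 16 of 60 values under the alternatives other than a mouse left out moved by 1 SD or more, and 58 kept their sign. Car2 turned sign in averages over cells and in thinned cells, where 6 genes were higher in Cluster 8 in place of 5. With each mouse left out the count was 5 to 5, but 1 of 14 mice can move a mean little, so this says little.

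Counts of genes called by edgeR (0 in 6 comparisons, 2 in the interaction) moved as follows. DESeq2 called 1 at 1 d, 1 at 7 d, 1 at 14 d, 83 in Cluster 8 and 1 in the interaction. No filter on low counts gave 3 at 1 d, 6 at 7 d, 17 at 14 d, 13 in Cluster 4, 43 in Cluster 8 and 7 in the interaction. Replicate number as a block (replicate block) gave 1 at 1 d, 6 at 14 d and 6 in Cluster 4, with 0 at 7 d, 0 for cKO against WT, 0 in Cluster 8 and 2 in the interaction. It changed no other call, and none of the 10 genes was called with it. The series of animal numbers in the design gave 2 at 1 d, 8 at 7 d, 118 at 14 d, 65 in Cluster 4, 27 in Cluster 8 and 2 in the interaction, where C1qa was lost. Cells thinned to 500 UMIs gave 0 in the interaction.

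With each mouse left out, counts ran from 0 to 1 at 1 d (1 without cKO 7 d replicate 1 or cKO 7 d replicate 2), 0 to 1 at 7 d (1 without cKO 7 d replicate 2), 0 to 0 at 14 d, for cKO against WT and in Cluster 4, 0 to 267 in Cluster 8 (267 without WT uninjured replicate 1, 1 without cKO 1 d replicate 2) and 2 to 15 in the interaction (15 without WT uninjured replicate 1, 5 without cKO 1 d replicate 2). The cause was not tested. The range of UMIs per mouse, 85933 to 1060647 in Clusters 4 and 8, limits genes of low level, and 3 or 4 uninjured mice limit every comparison with injury.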
